A study of Mus musculus with 6 samples.

Results

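Connexins are the proteins of gap junctions. A ring of connexin subunits in the membrane of one cell docks with a ring in the membrane of its neighbour, and the joined channel lets ions and small metabolites pass between the cells. Different cell types use different connexins, and in the mouse mammary gland Gja1 is known from myoepithelial cells, while Gjb2 and Gjb1 are known from the luminal cells, where the proteins can share channels. The 8 genes described here are Gjb1, Gjb2, Gjb5 and Gjb6 of the beta group, Gja1, Gja4 and Gja5 of the alpha group and Gjc1 of the gamma group. They were taken by symbol from the 54232 genes counted in each library, and 12 other connexin genes were counted beside them. Gjb1 was chosen by its measured rise in fx/fx tumors, so its difference between the genotypes is given as a description with no test. The other members were taken as genes of the same family.

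RNA was sequenced from 3 tumor libraries of NIC+ mice with CdGAP fx/fx and 3 tumor libraries of NIC+ mice with CdGAP wt/wt. The NIC transgene expresses activated ErbB2 and Cre recombinase together from a promoter of mouse mammary tumor virus, which is active in mammary epithelium, so all 6 tumors carried the oncogene and Cre. CdGAP is the product of Arhgap31 and inactivates Rac1 and Cdc42, both small GTPases. In fx/fx mice Cre can recombine both copies in the cells that express it, and cells of the tumor without Cre keep the gene. The libraries are called fx1, fx2, fx3, wt1, wt2 and wt3 after their labels. Strain, age and the number of tumors per library are not given in the sources used here, and no label states that each library is from an animal of its own. The p-values therefore reflect only how these 6 samples spread, which may be technical.

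Libraries held between 36732137 and 53606276 counts. Levels are CPM (counts per 1000000 counts after TMM scaling), or FPKM (CPM per 1000 bases of the deposited gene length) wherever genes are compared with each other. Arhgap31 measured 156, 44.1 and 116 CPM in fx1, fx2 and fx3, against 664, 433 and 549.8 CPM in wt1, wt2 and wt3. The targeted gene was thus lower in all 3 fx/fx libraries. With edgeR, 0 of 16752 genes passed at an adjusted p under 0.05 (0%). At an unadjusted p under 0.05 there were 2381 genes (14.2%), limma-voom called 0 after adjustment, and DESeq2 called 831 of 16717 genes (4.97%).

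The members are separate genes with related coding sequences. All 8 share, in the part of the coding sequence for the first extracellular loop, 3 cysteine codons with 6 and then 3 other codons between them, which belong to the loop that takes part in docking. The stretches below are shown because they let the family likeness be read base by base. They run from the first to the last of these codons, with the cysteine codons in capitals, and come from the GENCODE M21 transcripts (GRCm38). Each is read along the coding strand, and starts at base 157 of the coding sequence in the beta genes and Gjc1 and at base 160 in the alpha genes.
Gjb1: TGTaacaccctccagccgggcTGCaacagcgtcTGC
Gjb2: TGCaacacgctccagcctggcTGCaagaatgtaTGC
Gjb6: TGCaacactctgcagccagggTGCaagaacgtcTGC
Gjb5: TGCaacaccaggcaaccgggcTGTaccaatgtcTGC
Gja1: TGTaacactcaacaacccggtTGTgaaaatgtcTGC
Gja4: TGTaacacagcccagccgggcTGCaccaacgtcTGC
Gja5: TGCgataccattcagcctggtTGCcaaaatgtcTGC
Gjc1: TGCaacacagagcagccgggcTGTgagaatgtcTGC

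Over whole coding sequences, Gjb2 and Gjb6 were the closest pair, with 75.7% of 678 aligned bases identical. Gjb1 and Gjb2 were identical at 69.4% of 671 aligned bases. The longest identical run between any 2 members in these alignments was 26 bases, between Gja1 and Gja4. The coding part of each member lay in 1 exon, with 226 codons in Gjb2, 283 in Gjb1, 382 in Gja1 and 396 in Gjc1.

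Gjb1, on chromosome X from 101376378 to 101385629 (plus strand, GRCm38; ENSMUSG00000047797), was the connexin with the higher level in fx/fx tumors for which it was picked. This beta connexin is best known from liver and exocrine glands and from the myelin of peripheral nerve. It measured 135.5, 43.1 and 115.5 CPM in fx1, fx2 and fx3, against 13.8, 13.7 and 9.91 CPM in wt1, wt2 and wt3. The groups did not overlap, and the lowest fx/fx library, fx2, was 3.12 times the highest wt/wt library. The means were 98.0 ± 48.6 CPM in fx/fx and 12.5 ± 2.22 CPM in wt/wt (SD, n = 3 each), a 7.86-fold higher level (log2 fold change 2.97, SE 0.43). Of all genes tested, 80 had a log2 fold change at least as high (0.478%). Because Gjb1 was picked for this rise, that share describes its rank and is not a test. Within fx/fx the library with the lowest Gjb1, fx2, was also the one with the lowest Arhgap31. In bulk tumors, more cells of a type and more RNA per cell cannot be told apart.

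Gjb2, on chromosome 14 from 57098600 to 57104702 (minus strand; ENSMUSG00000046352), differed in the other direction. It encodes a beta connexin of luminal mammary cells, liver and cochlea. It measured 18.1, 36.2 and 12.2 CPM in fx1, fx2 and fx3, against 83.1, 46.7 and 42.9 CPM in wt1, wt2 and wt3. Each fx/fx library lay below each wt/wt libraries, but the highest of them, fx2, was close to wt3. The means were 22.2 ± 12.5 CPM in fx/fx and 57.6 ± 22.2 CPM in wt/wt (SD, n = 3 each). On the log2 scale the fold change was -1.38 with an SE of 0.44, and 2.32% of all genes tested had one as low or lower. The difference did not pass, with an edgeR adjusted p of 0.243 and a DESeq2 adjusted p of 0.0621. Genes whose groups did not overlap and that were lower in fx/fx made up 9.93% of those tested.

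**Figure D1:**
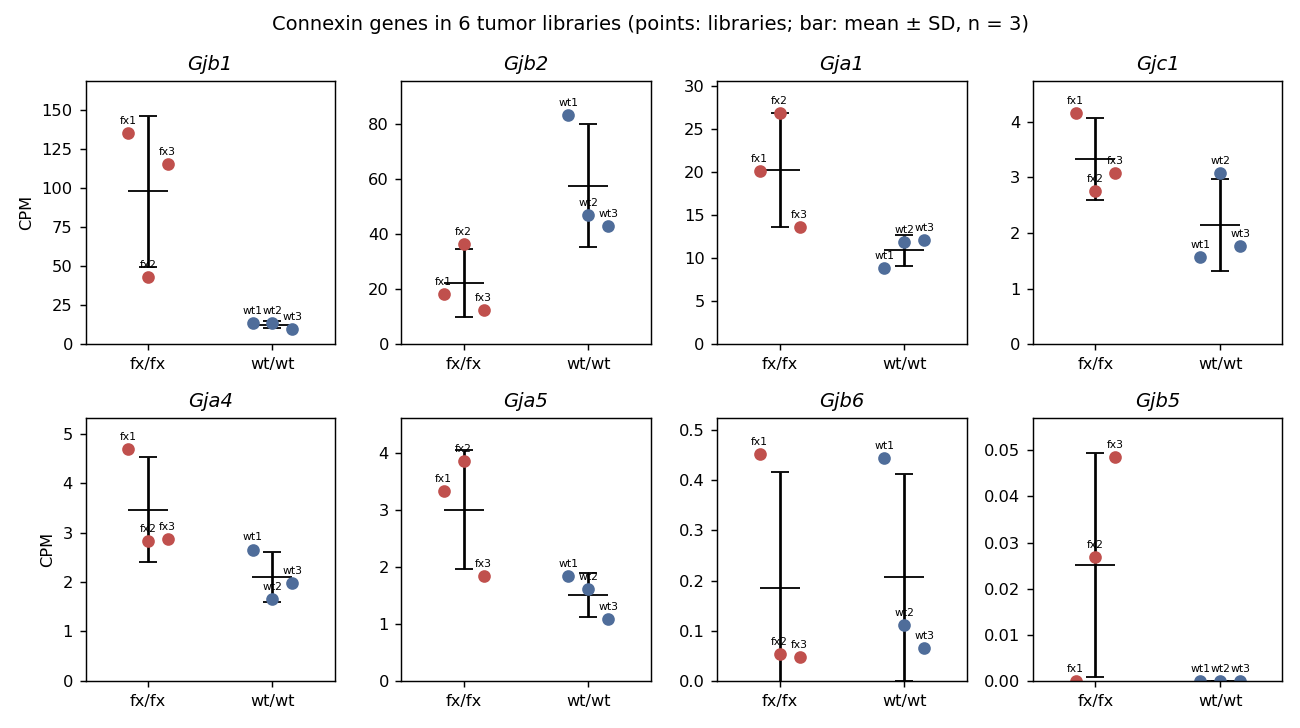
CPM of the 8 connexin genes in each library (points, fx/fx left and wt/wt right in each panel), with the mean and SD over 3 libraries as bars; each panel has its own scale from 0. Gjb1 lies between 43.1 and 135.5 CPM in fx/fx libraries and at 13.8 CPM or less in wt/wt libraries, Gjb2 lies lower in fx/fx, and Gjb6 and Gjb5 stay under 0.5 CPM.

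Together Gjb1 and Gjb2 made up most of the connexin transcripts in every library, when all 20 connexin genes are summed per length. They held 92.0%, 85.3% and 93.8% of the summed FPKM in fx1, fx2 and fx3, against 90.4%, 80.2% and 83.3% in wt1, wt2 and wt3. Gjb1 alone held 84.1%, 53.5% and 87.3% in fx1, fx2 and fx3, against 17.2%, 23.5% and 20.5% in wt1, wt2 and wt3. Gjb2 was therefore the most abundant connexin of each wt/wt library and Gjb1 that of each fx/fx library. The share of Gjb2 was 7.97%, 31.9% and 6.56% in fx1, fx2 and fx3, against 73.2%, 56.8% and 62.8% in wt1, wt2 and wt3.

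The FPKM ratio of Gjb1 to Gjb2 was 10.6, 1.68 and 13.3 in fx1, fx2 and fx3, against 0.235, 0.413 and 0.326 in wt1, wt2 and wt3. Because Gjb1 was picked for its level in fx/fx, this ratio is a description too. The sum of both genes was 66.6 ± 23.9 FPKM in fx/fx and 31.2 ± 10.1 FPKM in wt/wt (SD, n = 3 each). Here the groups overlapped, since fx2 had 40.3 FPKM and wt1 had 42.6 FPKM. The other 18 connexin genes together had 7.52, 6.94 and 4.79 FPKM in fx1, fx2 and fx3, against 4.55, 6.75 and 4.74 FPKM in wt1, wt2 and wt3, which also overlapped.

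**Figure D2:**
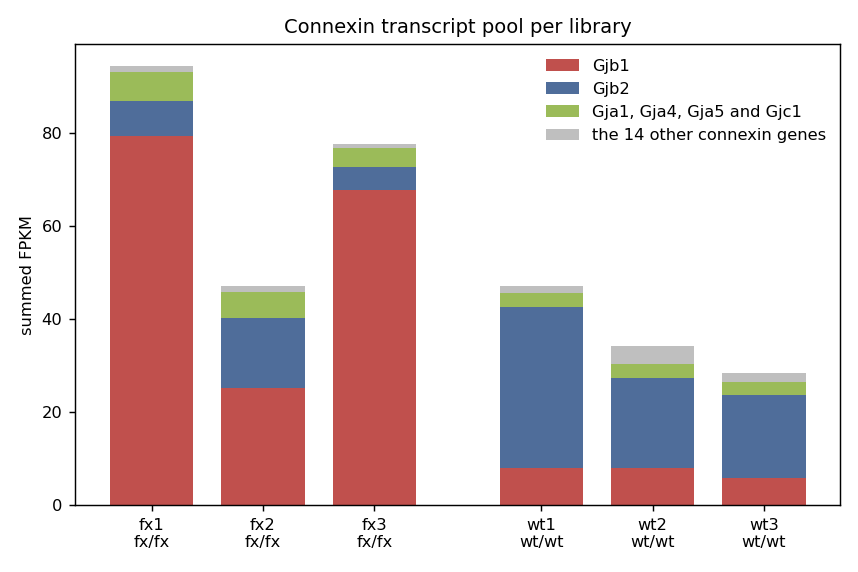
Summed FPKM of all 20 connexin genes per library as stacked bars, fx/fx on the left and wt/wt on the right, split into Gjb1, Gjb2, the 4 genes Gja1, Gja4, Gja5 and Gjc1, and the 14 others. Gjb1 fills 53.5% to 87.3% of the bar in fx/fx libraries, and Gjb2 fills 56.8% to 73.2% in wt/wt libraries.

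The regions before the start sites of these 2 genes are shown because the genes differ in opposite directions. They come from RefSeq (GRCm38.p6), which gives a start site for 7 of the 8 members, and each has the 250 bases before the start. Gjb1 has 4 annotated starts, and the counts sum over all of them, so which start was used was not analysed here. Capitals mark the GC box, searched as GGGCGG and, on the other strand, as CCGCCC, which is held by 32.7% of the 32851 RefSeq windows of this length. The most upstream and the most downstream start of Gjb1 have their windows at chrX:101376126-101376375 and chrX:101383482-101383731 (plus strand), and Gjb2 has its window at chr14:57104703-57104952 (minus strand).
Gjb1, upstream start: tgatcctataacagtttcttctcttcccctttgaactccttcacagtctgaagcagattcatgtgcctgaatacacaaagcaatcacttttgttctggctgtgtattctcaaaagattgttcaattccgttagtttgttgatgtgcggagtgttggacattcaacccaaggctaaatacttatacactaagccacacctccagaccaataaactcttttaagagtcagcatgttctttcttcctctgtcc
Gjb1, downstream start: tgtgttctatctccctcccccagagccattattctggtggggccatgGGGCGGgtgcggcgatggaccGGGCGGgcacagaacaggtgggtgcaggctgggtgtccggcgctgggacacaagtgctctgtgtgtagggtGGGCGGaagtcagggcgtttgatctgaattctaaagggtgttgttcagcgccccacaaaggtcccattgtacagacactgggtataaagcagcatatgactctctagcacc
Gjb2: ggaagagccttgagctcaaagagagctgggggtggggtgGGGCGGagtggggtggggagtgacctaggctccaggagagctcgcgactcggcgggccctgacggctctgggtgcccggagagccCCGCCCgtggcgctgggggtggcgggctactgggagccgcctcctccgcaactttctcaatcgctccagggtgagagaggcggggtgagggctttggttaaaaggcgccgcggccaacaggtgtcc

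The window before the downstream Gjb1 start held 3 GC boxes and 58.4% G or C, and that before the upstream start held 0 and 40.4%. The Gjb2 window held 2 GC boxes and 69.2% G or C. The TATA box, searched as TATAAA and, on the other strand, as TTTATA, was in 12.4% of all windows. It was found 1 time before the downstream Gjb1 start and 0 times in the Gjb2 window. Such matches describe the letters only.

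Gja1, on chromosome 10 from 56377330 to 56402513 (plus strand; ENSMUSG00000050953), encodes the most widely used connexin of fibroblasts, myoepithelium, smooth muscle and heart. It measured 20.1, 26.9 and 13.6 CPM in fx1, fx2 and fx3, against 8.80, 11.8 and 12.1 CPM in wt1, wt2 and wt3. The fx/fx libraries lay higher without overlap, fx3 only just. The means were 20.2 ± 6.62 CPM in fx/fx and 10.9 ± 1.82 CPM in wt/wt (SD, n = 3 each), a log2 fold change of 0.89 (SE 0.30) that did not pass (edgeR adjusted p = 0.262, DESeq2 adjusted p = 0.11).

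Most fibroblast and basal or myoepithelial markers were higher in fx/fx, as Gja1 was, and their part in its difference was not tested. Relative to wt/wt, Gja1 and the mean of the fibroblast markers were highest in fx2, but the mean of the basal or myoepithelial markers was highest in fx1. Of 7 fibroblast markers 6 were higher in fx/fx, with summed levels of 490.1 to 948 CPM in fx/fx and 185 to 343 CPM in wt/wt. Of 9 basal or myoepithelial markers 8 were higher, with sums of 65.7 to 84.7 CPM in fx/fx and 37.5 to 44.7 CPM in wt/wt. Most of each sum came from Acta2 and Mylk, the latter with means of 27.4 CPM in fx/fx and 16.3 CPM in wt/wt. Krt5, Krt14, Krt17 and Trp63 were at 4.35 CPM or less in every library, so the sums say little about them. Acta2, the actin of smooth muscle and myoepithelium, measured 36.1, 48.5 and 22.1 CPM in fx1, fx2 and fx3, against 14.9, 16.9 and 20.9 CPM in wt1, wt2 and wt3. Set against the mean of the fibroblast markers, Gja1 was lower in fx/fx, with a mean log2 difference of -0.49 and no overlap, whereas the same difference in Gja1 alone was 0.85. Set against the basal or myoepithelial markers it was -0.11, and the groups overlapped.

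Gja4 and Gja5 encode the connexins known from arterial endothelium. Gja4, on chromosome 4 from 127311421 to 127314039 (minus strand; ENSMUSG00000050234), measured 4.69, 2.84 and 2.86 CPM in fx1, fx2 and fx3, against 2.66, 1.65 and 1.99 CPM in wt1, wt2 and wt3. Gja5, on chromosome 3 from 96904693 to 97077416 (plus strand; ENSMUSG00000057123), measured 3.33, 3.86 and 1.84 CPM in fx1, fx2 and fx3, against 1.84, 1.61 and 1.09 CPM in wt1, wt2 and wt3. For both, the fx/fx libraries lay above the wt/wt libraries by small margins, and for Gja5 fx3 and wt1 had nearly the same value. Genes whose groups did not overlap and that were higher in fx/fx made up 9.74% of those tested.

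Neither passed edgeR. Gja4 had a log2 fold change of 0.72 (SE 0.38; edgeR adjusted p = 0.44), with means of 3.46 ± 1.06 CPM in fx/fx and 2.10 ± 0.512 CPM in wt/wt (SD, n = 3 each). Gja5 had a log2 fold change of 0.99 (SE 0.42; edgeR adjusted p = 0.34), with means of 3.01 ± 1.04 CPM in fx/fx and 1.51 ± 0.383 CPM in wt/wt (SD, n = 3 each). One end of Gja5 overlaps Gpr89 on the opposite strand, which had 19183 counts in all against 602 for Gja5, so Gja5 is less certain if the kit did not keep strand.

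Endothelial markers were higher in fx1 and fx2 but not in fx3. All 10 had a positive log2 fold change, with a median of 0.66 beside 0.00 over all genes tested, and their summed level was 155 to 302.5 CPM in fx/fx and 132 to 161 CPM in wt/wt. Pecam1 measured 67.1, 53.2 and 32.3 CPM in fx1, fx2 and fx3, against 30.2, 26.6 and 34.4 CPM in wt1, wt2 and wt3. Set against the mean of the endothelial markers, the mean log2 difference between fx/fx and wt/wt became 0.07 for Gja4 and 0.31 for Gja5, against 0.70 and 0.94 for the genes alone, and the groups overlapped for both. With the arterial markers in place of the endothelial ones these differences were 0.14 and 0.38. Of the 7 arterial markers 6 passed the filter on low counts, and Gkn3 was at 0 CPM in 4 of the 6 libraries.

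Gjc1, on chromosome 11 from 102799579 to 102819700 (minus strand; ENSMUSG00000034520), encodes a gamma connexin of vascular smooth muscle and the conduction tissue of the heart. It measured 4.16, 2.76 and 3.08 CPM in fx1, fx2 and fx3, against 1.57, 3.08 and 1.77 CPM in wt1, wt2 and wt3. The groups overlapped, since wt2 was as high as fx3. The log2 fold change was 0.64 (SE 0.40; edgeR adjusted p = 0.514). All 8 pericyte or smooth muscle markers had a positive log2 fold change, with summed levels of 388 to 492 CPM in fx/fx and 253 to 359 CPM in wt/wt. Set against the mean of those markers, the mean log2 difference of Gjc1 was -0.20, against 0.67 for the gene alone.

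**Figure D3:**
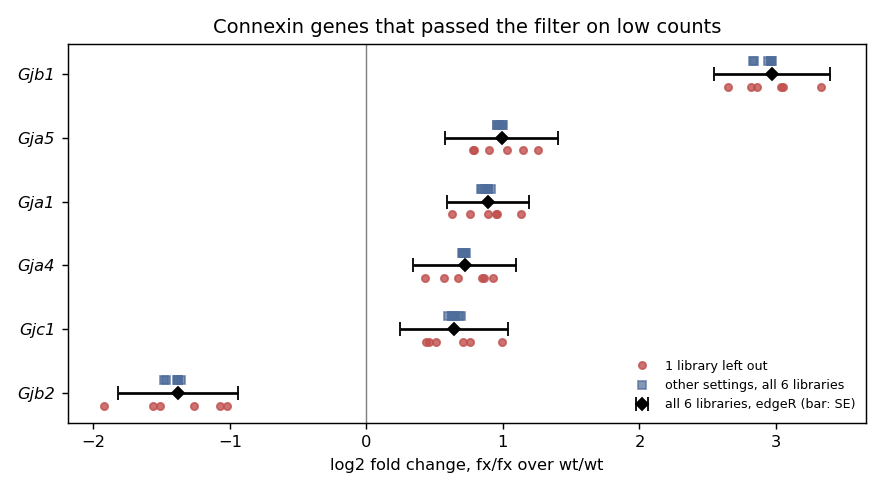
Log2 fold changes (fx/fx over wt/wt) of the 6 members that passed the filter on low counts: black diamonds with SE bars from edgeR on all 6 libraries, circles with 1 library left out, squares under other tools and scalings. Gjb1 stays at 2.65 or more, Gjb2 stays below 0, and the 4 others lie between 0.43 and 1.26.

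Gjb6 and Gjb5 were at or near the limit of detection and did not pass the filter on low counts. Gjb6, a beta connexin of skin, cochlea and astrocytes that is also known from the mammary gland in pregnancy and lactation, is a neighbour of Gjb2 on chromosome 14 (57123303 to 57133611; ENSMUSG00000040055). It had 24, 2 and 2 counts in fx1, fx2 and fx3, against 20, 5 and 3 counts in wt1, wt2 and wt3. The highest value of each genotype, 0.452 CPM in fx1 and 0.443 CPM in wt1, stood above the rest, and the groups overlapped. Gjb5, a beta connexin of skin and placenta on chromosome 4 (127354809 to 127358181; ENSMUSG00000042357), had 0, 1 and 2 counts in fx1, fx2 and fx3, against 0 counts in each wt/wt library. A count of 0 allows up to 3 counts, which is 0.056 to 0.0817 CPM at these depths and covers counting error only. No difference in Gjb5 was detectable at this depth.

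Gjb1 set aside, 5 members were tested, and edgeR and DESeq2 each called 0 of them at an adjusted p under 0.05. At an unadjusted p under 0.05 edgeR gave Gja1 and Gja5 as higher in fx/fx, beside 8.18% of all genes tested, and Gjb2 as lower, beside 6.04%. Of these 5, 4 had a log2 fold change above 0, as had 49.6% of all genes, and 4 had groups that did not overlap, as had 19.7% of all genes. The members that passed the filter on low counts are 6 of 8, so these counts do not speak for Gjb5 and Gjb6.

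In the order of FPKM, Gjb1 led in fx/fx with 57.4 ± 28.5 FPKM, followed by Gjb2 with 9.22 ± 5.19 FPKM, and their libraries did not overlap (SD, n = 3 each). Gja4 with 2.06 ± 0.629 FPKM and Gja1 with 1.97 ± 0.645 FPKM came next and did not differ beyond their spread. Gjc1 and Gja5 followed, at 0.666 and 0.524 FPKM, and overlapped as well. In wt/wt the order was led by Gjb2 with 23.9 ± 9.23 FPKM, then Gjb1 with 7.31 ± 1.30 FPKM, without overlap. Gja4 and Gja1 followed in wt/wt, at 1.25 and 1.06 FPKM, and overlapped.

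Of the 12 other connexin genes, 3 passed the filter on low counts and edgeR called 0 of them. Gja3, a lens connexin next to Gjb2, was uneven within both genotypes, at 0.339, 2.62 and 0.34 CPM in fx1, fx2 and fx3, against 0.0443, 1.56 and 0.262 CPM in wt1, wt2 and wt3. Gjd2, Gjd4 and Gje1 had 0 counts in all 6 libraries.

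Pannexins form channels in the membrane of single cells and are not related to connexins in sequence. Panx2 measured 1.41, 1.61 and 2.35 CPM in fx1, fx2 and fx3, against 3.77, 3.46 and 3.69 CPM in wt1, wt2 and wt3, lower in fx/fx without overlap. Its log2 fold change was -1.02 (SE 0.34; edgeR adjusted p = 0.262). DESeq2, which called 1.96% of all genes as lower, called it (adjusted p = 0.0353), a call that was lost with any library other than fx3 left out. Panx1 measured 3.41 ± 1.53 CPM in fx/fx and 3.58 ± 0.703 CPM in wt/wt (SD, n = 3 each), and the groups overlapped.

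Genes of gap junction partners (28 genes for scaffold, cadherin and catenin proteins, kinases and the sorting and turnover of connexins) showed no call in edgeR. Of the 27 tested, 18 were higher and 9 lower, with a median log2 fold change of 0.26 beside 0.00 over all genes tested. DESeq2 called 3.01% of all genes as higher, and of these partners 1. The 4 with the smallest p were Cav1, Dbn1, Prkca and Smurf2. Cav1, caveolin, measured 59.6, 50.2 and 26.7 CPM in fx1, fx2 and fx3, against 18.4, 18.2 and 23.6 CPM in wt1, wt2 and wt3. DESeq2 called it (adjusted p = 0.0274; edgeR adjusted p = 0.203), but not with any library other than fx3 left out. Caveolin is abundant in endothelium and adipocytes, and the 6 adipocyte markers, all with a positive log2 fold change, summed to 73.5 to 220.5 CPM in fx/fx and 17.4 to 50.9 CPM in wt/wt. Their part in the difference of Cav1 was not tested. Dbn1, an actin-binding protein that binds Gja1, had a log2 fold change of 1.27 (SE 0.41; edgeR adjusted p = 0.243). Those of Prkca, a kinase that phosphorylates Gja1, and Smurf2, a ubiquitin ligase, were 0.96 and 0.57.

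Of 16 transcription factors known to act on connexin genes, 13 were tested and edgeR called 0, with 10 higher and 3 lower in fx/fx (median log2 fold change 0.10). Sp3, which binds GC boxes, measured 121, 138 and 129 CPM in fx1, fx2 and fx3, against 94.3, 94.1 and 102 CPM in wt1, wt2 and wt3 (log2 fold change 0.42, SE 0.15; edgeR adjusted p = 0.283). Bhlha15, which activates Gjb1 in the exocrine cells of the mouse pancreas, measured 201.5, 313.5 and 455 CPM in fx1, fx2 and fx3, against 473, 590.1 and 378 CPM in wt1, wt2 and wt3. Here the groups overlapped. Egr2, which acts on Gjb1 in Schwann cells, had a log2 fold change of 0.93 (SE 0.41; edgeR adjusted p = 0.357), and Sox17, an arterial factor, one of 0.75 (SE 0.39; edgeR adjusted p = 0.43). Sox10, which also acts on Gjb1 in Schwann cells, was high in all 6 tumors, at 824 to 1120 CPM in fx/fx and 893 to 1048 CPM in wt/wt.

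Liver and peripheral nerve are the tissues best known for Gjb1. The 5 hepatocyte markers summed to between 0.107 and 0.17 CPM in fx/fx and between 0.0443 and 1.68 CPM in wt/wt. The 6 Schwann cell markers, Sox10 among them, summed to 954 to 1337 CPM in fx/fx and 1044 to 1161 CPM in wt/wt, with 4 higher and 2 lower.

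Luminal epithelial markers, which stand for the tumor cells, were abundant in all 6 libraries, with summed levels of 4092 to 5567 CPM in fx/fx and 3962 to 4770 CPM in wt/wt. Of 10 such markers 9 were higher in fx/fx, with a median log2 fold change of 0.11. Set against their mean, the log2 difference of Gjb1 was 2.43 (against 2.83 for the gene alone), and that of Gjb2 was -1.85 (against -1.46), both without overlap. The luminal mean was raised most by Cldn4 (log2 fold change 2.85, with 137 CPM in fx1) and Krt19 (1.17). The remaining luminal markers had log2 fold changes between -0.34 and 0.47. Alveolar secretory genes, such as those of the milk proteins, varied within each genotype. Their mean log2 level relative to wt/wt was -1.63, 0.60 and -0.90 in fx1, fx2 and fx3, against -0.40, 0.78 and -0.37 in wt1, wt2 and wt3. Gjb2 was lowest in fx1 and fx3 too, and set against these genes its mean log2 difference was -0.82 with overlapping groups, while Gjb1 kept a difference of 3.47 without overlap. The part of these markers in the connexin differences was not tested. Mast cell markers were higher in fx/fx for 3 of 4 tested, cornified skin markers for 1 of 3, lymphocyte markers for 0 of 4 and macrophage markers for 5 of 7.

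**Figure D4:**
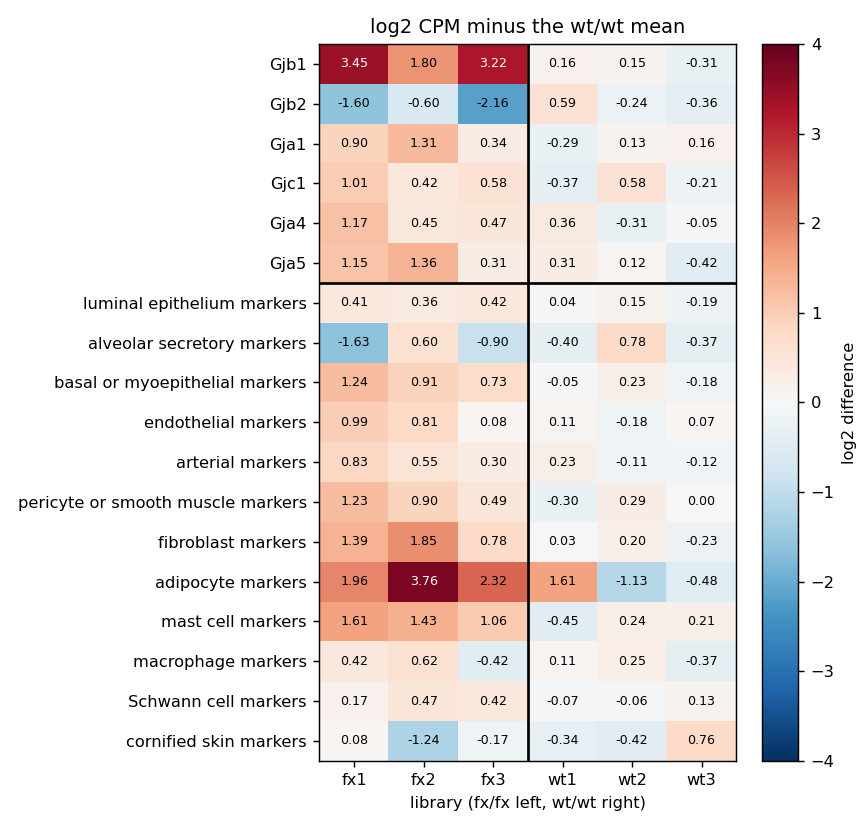
Log2 CPM minus the wt/wt mean for 6 connexin genes (top) and for the mean of 12 marker lists (bottom), one column per library, fx/fx left and wt/wt right; red is higher and blue lower than the wt/wt mean. Gjb1 and Gjb2 take opposite colours in fx/fx, and the alveolar secretory row is blue in fx1 and fx3 (-1.63 and -0.90) but red in fx2 (0.60).

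Some members lie in regions of the genome whose median level differed between libraries, so each was set beside the other expressed protein-coding genes within 10 Mb. Near Gja4 the median log2 level relative to wt/wt over 189 genes was -0.77, -0.11 and -0.80 in fx1, fx2 and fx3, against values between -0.05 and 0.04 in wt/wt. Gja4 was higher in fx/fx while its region was lower in fx1 and fx3, and relative to the region its mean log2 difference was 1.26. Near Gja1 the median was -0.59 in fx1 but -0.03 in fx2 and 0.03 in fx3, against values between -0.08 and 0.07 in wt/wt, and relative to it the difference of Gja1 was 1.04.

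Near Gjb1 the median over 48 genes lay between -0.08 and 0.14 in fx/fx and between -0.05 and 0.05 in wt/wt. Its 5 nearest tested protein-coding genes on each side, taken by position, had log2 fold changes between -0.42 and 0.44. Near Gjb2 the 10 nearest lay between -1.07 and 0.81, the extremes being Il17d and the connexin gene Gja3, both with few counts. Relative to the 135 expressed genes within 10 Mb, the mean log2 difference of Gjb2 was -1.43.

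**Figure D5:**
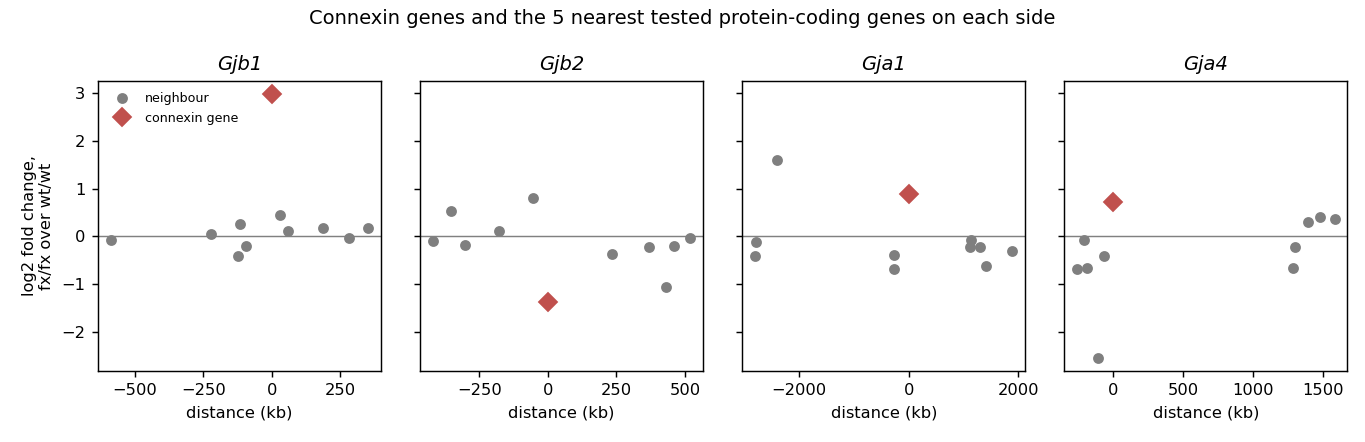
Log2 fold change (fx/fx over wt/wt, vertical axis) of Gjb1, Gjb2, Gja1 and Gja4 (diamonds) and of the 5 nearest tested protein-coding genes on each side (circles), by distance in kb from the connexin gene; the horizontal scale differs between panels. Neighbours of Gjb1 lie between -0.42 and 0.44 around its 2.97, and the 5 neighbours to the left of Gja4 are all below 0.

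The patterns most like those of the 3 members with a mean of at least 5 CPM were found by Pearson correlation of log2 CPM over the 6 libraries, among 10718 protein-coding genes at that level. With 6 libraries many genes reach high values, 65 for Gjb1, 53 for Gjb2 and 32 for Gja1 above 0.95, and the values of a library share its depth and cell makeup. Among the highest for Gjb1 were Dcbld2 (r = 0.997) and Ifitm2 (0.994). Ifitm2 measured 145.5, 120.7 and 137 CPM in fx1, fx2 and fx3, against 104.5, 105 and 97.0 CPM in wt1, wt2 and wt3, a smaller difference with fx2 again the lowest of fx/fx. For Gjb2 the 3 highest were Trps1 (0.991), Dyrk1b (0.991) and Psmd11 (0.987), and Trps1 measured 450, 579.8 and 386 CPM in fx1, fx2 and fx3, against 962, 671 and 657 CPM in wt1, wt2 and wt3. For Gja1 they were Bicra (0.989), Angptl2 (0.987) and Acta2 (0.987).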

How the data were processed

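The deposited files hold raw counts per gene, 1 file per library. Per the file headers, featureCounts 1.6.0 made them from the Ensembl release 93 annotation of GRCm38, with both ends aligned, chimeric pairs left out and strand option 2. The submitters' processing notes give featureCounts as 1.4.6, and also list STAR 2.5.1b and DESeq2 1.12.3. No source used here names the library kit. GENCODE M21 gave a symbol for 54165 of 54232 identifiers, and 0 rows named no gene.

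edgeR 4.0.16 (R 4.3.3) compared the genotypes with filterByExpr, TMM and the quasi-likelihood test, 2-sided, with Benjamini-Hochberg adjustment over all genes tested and a threshold of 0.05. DESeq2 1.42.0, limma-voom (limma 3.58.1), other scalings, no filter, a replicate block and each library left out were alternatives. Of these, only the edgeR fit with TMM and the filter was tried on simulated data. Libraries of a genotype differed beyond counting noise (chi-square per degree of freedom of at least 145), so none was treated as a library deposited 2 times. This does not show that they came from separate tumors or animals, and each was used as a replicate because the labels number it as one. Differences set against markers or regions used means of log2 CPM with a prior count of 2, so they differ slightly from fitted fold changes. Regions used protein-coding genes whose mean log2 CPM was above 3. Coding sequences were aligned with Biopython 1.88.

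The members and lists were chosen with earlier results of these data known. Other connexins and pannexins were named from 1 CPM in any library, list genes by the 4 smallest unadjusted p, and like patterns by the 3 highest correlations. Further genes named (those at 0 throughout, Pecam1, Acta2, Gkn3, Sox10, Cldn4, Krt19 and Il17d) were chosen after their values were seen. So were Mylk, Krt5, Krt14, Krt17 and Trp63. Some items that these rules name are not reported here.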

Additional observations from a re-analysis of the deposited data

How the results depend on the processing

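The 6 members with a fitted fold change kept their direction under all 12 alternatives run. For members whose groups did not overlap, leaving out 1 library could hardly have changed it. Gjb1 was also picked for its rise, so its kept direction is a description. Gjb5 and Gjb6 did not pass the filter on low counts and have no fitted value. With 1 library left out, log2 fold changes ranged from 2.65 to 3.33 for Gjb1, from -1.92 to -1.02 for Gjb2, from 0.63 to 1.13 for Gja1, from 0.43 to 0.93 for Gja4, from 0.78 to 1.26 for Gja5 and from 0.44 to 0.99 for Gjc1. None of the 5 tested members passed the threshold under any of these, DESeq2 included. The count of genes past the threshold was 0 in edgeR, 38 with no filter on low counts, 831 with DESeq2 and between 0 and 2 with 1 library left out (2 without fx2). The cause was not tested. Same-numbered libraries deviated from their group means with correlations of -0.085, -0.095 and 0.057, within the -0.222 to 0.279 of differently numbered ones. These values do not settle whether same-numbered libraries share more than a label. With the replicate block, edgeR called 0 genes, and log2 fold changes were 2.84 for Gjb1 and -1.47 for Gjb2. Arhgap31 passed with DESeq2 (adjusted p = 3.2e-05), but not in edgeR (adjusted p = 0.153). Leaving out libraries in DESeq2 for Panx2 and Cav1 was chosen after seeing the data. Depth limits Gjb5 and Gjb6, which had at most 24 counts per library.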

Other observations

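Gjc3, a connexin of glia that did not pass the filter on low counts, had 48, 1 and 9 counts in fx1, fx2 and fx3, against 0, 1 and 0 counts in wt1, wt2 and wt3. Most of these counts lay in fx1, and no fold is given because the wt/wt total is within the limit that a count of 0 allows. Gjc3 was named after its values were seen.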
